A study of Mus musculus with 6 samples.

Results

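The subject is a set of 9 genes for enzymes and proteins that write, copy, remove or read DNA methylation: Dnmt1, Dnmt3a, Dnmt3b, Uhrf1, Uhrf2, Tet1, Tet2, Tet3 and Mbd2. They were chosen by name, and every probe whose deposited name was one of these symbols or an older symbol of the same gene was taken. All 9 of 9 genes had probes, 19 in total, among 30774 distinct names on the array. The 3 Tet genes were deposited under older names (Cxxc6 for Tet1, E130014J05Rik for Tet2 and D230004J03Rik for Tet3). RNA came from DN3 thymocytes, an early double-negative stage of T cell development at which the T cell receptor beta gene is rearranged. There were 3 samples of mice with a transgene for miR-185 (miR-185 Tg) and 3 of wild-type mice (WT), all labelled C57BL/6 and with no agent named. The promoter of the transgene, the age of the mice, and whether a sample was a single mouse or a pool are not given in the sources used here. Cells were sorted as CD25+ and CD44-, after removal of cells bearing CD4, CD8, B220, NK1.1, the gamma-delta receptor, CD11b or CD11c. Nothing names separate mice, so p-values reflect only how much these samples varied, and part of that spread may be technical. The study looked for genes that respond to miR-185, and Dnmt1 has been reported elsewhere as a target of this microRNA.

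DNA methylation in mammals is placed on cytosines of CpG dinucleotides by DNMT3A and DNMT3B and is copied to the new strand at each cell division by DNMT1. UHRF1 recognises the half-methylated DNA left behind a replication fork and brings DNMT1 to it, so genes of this copying step are active in dividing cells. TET enzymes oxidise methylcytosine, which leads to its loss by repair or through cell division, and proteins with a methyl-binding domain such as MBD2 read the mark. In thymus, loss of DNMT1 or of TET2 and TET3 is known to disturb T cell development.

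A microRNA acts through its seed, bases 2 to 8 of the mature strand. The transgene's microRNA is shown as the precursor of the mouse locus and as the 3p strand with its seed in capitals, both from RefSeq on GRCm38.p6. The precursor lies at chr16:18327401-18327465 on the minus strand, and the 3p strand at chr16:18327405-18327425.
Mir185 hairpin: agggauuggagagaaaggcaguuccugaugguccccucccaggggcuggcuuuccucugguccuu
mmu-miR-185-3p: aGGGGCUGgcuuuccucuggu
The other strand, mmu-miR-185-5p, is named only, so the seed shown is not that of both strands. The arrays measure neither strand of the mature microRNA, and sites of either strand in Dnmt1 or other transcripts were not analysed here.

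Promoter windows of 300 bases, from 250 before to 50 after an annotated start, were taken from RefSeq on GRCm38.p6. Mbd2 was not included, so its promoter was not examined, and nothing is said here of its sequence. The windows used covered 8 of the 9 genes, in 13 windows. They were searched on both strands for TTTCCCGC, TTTCGCGC, TTTGCCGC and TTTGGCGC, words bound by E2F factors, which drive genes of DNA replication. Such a word stood in 2 of the 13 windows, 1 of Dnmt1 and 1 of Uhrf1, and in 2.26% of all 32817 windows. Both are printed with the matching words in capitals, because Dnmt1 and Uhrf1 form the copying machinery whose levels are described first. The Dnmt1 window, chr9:20952574-20952873 on the minus strand, and the Uhrf1 window, chr17:56304063-56304362 on the plus strand, each held 33 CpG dinucleotides, against a median of 7 over all windows.
Dnmt1: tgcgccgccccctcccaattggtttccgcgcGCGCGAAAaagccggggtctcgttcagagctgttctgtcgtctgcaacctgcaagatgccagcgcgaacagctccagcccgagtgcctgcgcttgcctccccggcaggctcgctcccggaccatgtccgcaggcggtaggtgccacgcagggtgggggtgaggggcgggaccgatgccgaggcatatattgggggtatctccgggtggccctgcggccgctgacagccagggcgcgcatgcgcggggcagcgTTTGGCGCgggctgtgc
Uhrf1: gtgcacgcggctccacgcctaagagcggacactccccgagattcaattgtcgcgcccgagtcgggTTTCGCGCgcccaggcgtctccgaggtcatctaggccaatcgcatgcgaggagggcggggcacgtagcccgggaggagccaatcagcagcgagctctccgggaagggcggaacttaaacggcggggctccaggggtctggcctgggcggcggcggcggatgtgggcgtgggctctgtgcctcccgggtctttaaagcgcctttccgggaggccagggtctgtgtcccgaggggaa
In Dnmt1 the first word lies on the opposite strand 219 bases before the start, and the other 33 bases after it. In Uhrf1 the word begins 185 bases before the start. A match is a description of these letters and not of binding. The other promoters also ran from CpG-poor to CpG-rich: over the 13 windows the count was lowest, 2, in another Dnmt1 window and highest, 57, in the window of Tet2.

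Some arrays were closer to each other than others. Between 39.5% and 41.8% of 45281 probes were detected per array. Tg 2 stood apart on the first principal component (44.0% of the variance). WT 2 and WT 3 lay close together (r = 0.996 across probes, which are not independent). Y-linked Ddx3y was at 6.06 on the log2 scale in Tg 2 and between 9.06 and 10.49 in the other samples. Eif2s3y and Kdm5d, also Y-linked, were at 4.56 and 4.30 in Tg 2. In the other samples they were at 7.95 to 8.87 and at 5.70 to 7.22. X-linked Xist was also lowest in Tg 2, at 9.02, and highest in Tg 3, at 12.30, with 9.23 to 10.41 in the rest. The part of these differences in the results was not tested. Of 14 DN3 markers, 13 were measured, and Il2ra, Dtx1 and Cd3g rose in Tg cells while 0 fell. Rag1, Rag2 and Bcl11b had negative log2 fold changes that did not pass (-0.64, -0.26 and -0.13). Among markers of the earlier DN1 and DN2 stages 0 rose and Bcl11a fell (log2 fold change -1.47, adjusted p = 0.039, limma). Among markers of double-positive and later thymocytes 0 rose and Itm2a fell (-1.28, adjusted p = 0.048, limma). The summed intensity of the DN3 markers was 75055 to 79606 in Tg cells against 52232 to 60387 in WT cells. Such a linear sum mostly follows its brightest genes, which in Tg cells were Cd3g, Lck and Cd3e. Their mean log2 intensities were 14.58, 13.97 and 13.59 in Tg cells and 13.86, 13.67 and 13.02 in WT cells. Cd8a and Ccr9 were detected on 0 arrays, but Cd8b1, another CD8 chain gene, had log2 intensities of 10.48 to 11.36 across the 6 arrays. The beta globin transcript Hbb-b1, of red blood cells, was at 9.40 to 10.21 on the log2 scale in Tg cells and at 8.0 to 13.12 in WT cells. Of the markers of natural killer, gamma-delta and myeloid cells, Nkg7 and Ly86 rose. S100a8, of myeloid cells, was at 4.21 to 4.28 on the log2 scale in Tg cells, detected on 0 of their arrays. In WT cells S100a8 was at 5.44 to 7.96 and detected on 3 arrays, with limma's adjusted p at 0.081. Lyz2, another myeloid gene, went the opposite way without reaching the threshold (adjusted p = 0.12, limma). It was at 7.42 to 8.59 in Tg cells and 5.75 to 7.19 in WT cells, with no overlap. For the myeloid genes Fcer1g and Csf1r the groups overlapped, with log2 differences of -0.08 and -0.05. Sox13, of gamma-delta cells, was at 5.90 to 7.25 in Tg cells and 7.63 to 7.68 in WT cells and did not pass (adjusted p = 0.10). The natural killer sum was 2521 to 3508 in Tg cells and 789 to 1160 in WT cells, with 4 of its 5 genes detected nowhere, and the gamma-delta sum over 4 of 6 genes was 126 to 221 in Tg cells and 267 to 274 in WT cells. What part these cells have in the results was not tested. Cells of a type becoming fewer and each cell holding less of a transcript cannot be told apart in such bulk samples.

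One gene of the set changed. Uhrf1 fell in miR-185 Tg cells to 64.3% of the WT level on the normalised intensity scale (95% interval 53.2% to 77.8%), while Dnmt1, Dnmt3b, Uhrf2, Tet1 and Tet2 did not pass the test, and Dnmt3a, Tet3 and Mbd2 gave no usable signal. A probe was used where its detection p was under 0.05 on at least 3 of the 6 arrays, and 12 of the 19 probes, from 6 of the 9 genes, met this. Of these 6 genes 1 was called lower and 0 higher at an adjusted p under 0.05 (limma). Over all 12426 genes tested, 4.23% were called, 1.68% lower and 2.55% higher in Tg cells. The median log2 fold change was -0.34 over the 6 genes and -0.0014 over all genes tested, and 5 of the 6 were negative, against 50.1% of all genes. With so few genes, this describes the set and tests nothing about it.

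**Figure D1:**
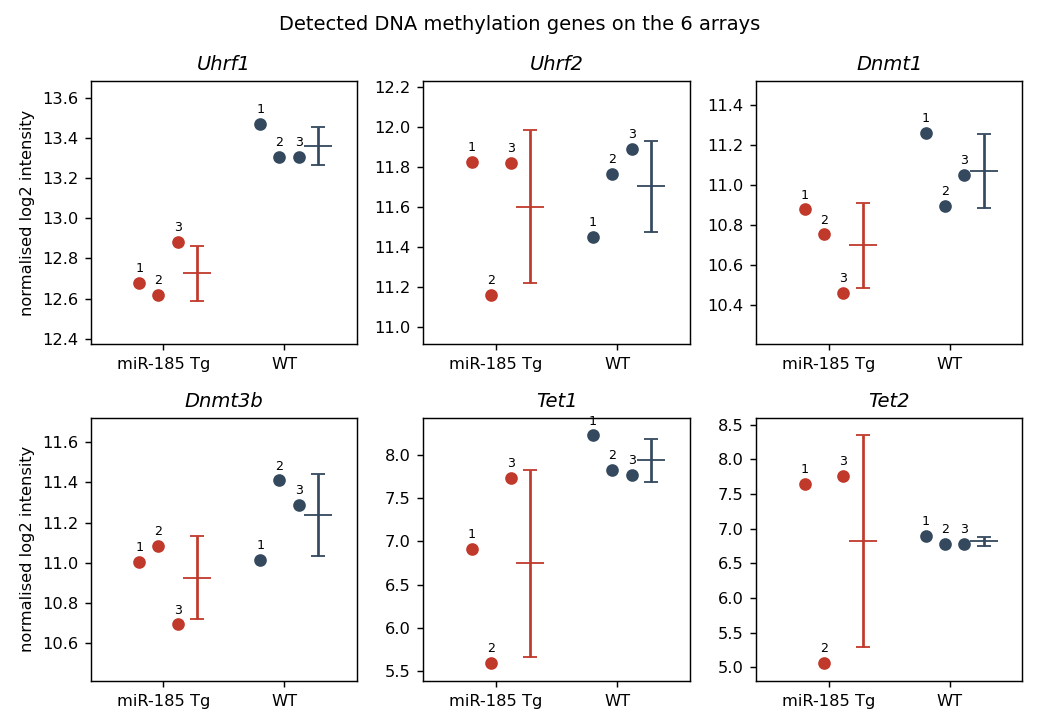
Normalised log2 intensity (vertical axes, each with its own range) of the brightest detected probe of 6 DNA methylation genes in miR-185 Tg (red, left) and WT (dark, right) samples; numbers are replicates, bars mean and SD (n = 3). The 3 Tg points lie below the 3 WT points for Uhrf1, Dnmt1 and Tet1, and Tg 2 is far below the other Tg samples for Tet2.

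Uhrf1, the factor that guides the copying enzyme to newly replicated DNA, is described first. Its brighter probe had normalised log2 intensities of 12.68, 12.62 and 12.88 in Tg 1, 2 and 3, against 13.47, 13.31 and 13.31 in WT 1, 2 and 3. All Tg samples were lower than all WT samples, and the gap between the groups was larger than the spread within either. The means were 12.73 ± 0.14 in Tg cells and 13.36 ± 0.09 in WT cells (SD, n = 3 each). The log2 fold change was -0.64 ± 0.12 (SE; adjusted p = 0.030, limma). The groups were also apart in the deposited intensities before any correction. These were 6557, 8122 and 6214 in Tg cells and 13221, 9340 and 9579 in WT cells. The order among Tg samples differed there, with Tg 2 highest and Tg 3 lowest. The standard error between beads of one array was 196 to 375 on this scale, smaller than the differences between groups. A second, dimmer Uhrf1 probe gave log2 intensities of 4.77, 5.48 and 4.67 in Tg cells, against 5.90, 6.37 and 6.51 in WT cells. Its groups did not overlap either, with a log2 difference of -1.28 ± 0.28 (SE; adjusted p = 0.052 over all probes, limma). Tg 1 and Tg 3 were close to background for this probe, with detection p of 0.024 and 0.041. The lowest detected signals of those arrays were 4.62 and 4.64, so the size of this difference is uncertain. An exact two-sided permutation test over the 6 samples gave p = 0.1 for each Uhrf1 probe, the smallest p that 3 against 3 allows.

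The call on Uhrf1 was lost when some single samples were left out, while its size moved little. Without WT 1, WT 2, WT 3 or Tg 1 the adjusted p was 0.15, 0.15, 0.17 and 0.099 (limma), and it was 0.021 without Tg 2 and 0.019 without Tg 3. With WT 2 and WT 3 averaged as 1 sample it was 0.15. It was 0.19 under median scaling and 0.077 without a variance trend. Calls over all genes went from 526 to 1, 35, 2 and 27 without WT 1, WT 2, WT 3 or Tg 1. They numbered 1666 without Tg 2, 607 without Tg 3 and 36 with WT 2 and WT 3 averaged. Median scaling called 310 genes, and the fit without a trend 536. Over all 19 alternatives the log2 fold change of Uhrf1 stayed between -0.96 and -0.57, and 11 of them called it.

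Uhrf2, a paralog of Uhrf1 with the same domains that does not replace it in copying methylation, had 4 detected probes. The brightest gave log2 intensities of 11.82, 11.16 and 11.82 in Tg cells and 11.45, 11.77 and 11.89 in WT cells. The groups overlapped, with Tg 2 lowest and the other Tg samples inside the WT range. The log2 fold change was -0.10 ± 0.22 (SE; adjusted p = 0.85, limma), with a 95% interval from -0.60 to 0.40. The other 3 probes had log2 differences of 0.09, -0.32 and -0.42, so the probes differed in sign. The change of Uhrf1 minus that of Uhrf2 was -0.54 on the log2 scale, and an exact permutation test over the 6 samples gave p = 0.2 (0.4 adjusted over 4 pairs of members). The smallest p this test allows is 0.1, so it can neither show nor dismiss a difference between the paralogs.

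Dnmt1, the enzyme that copies methylation, has 1 probe on the array. Its log2 intensities were 10.88, 10.75 and 10.46 in Tg 1, 2 and 3, against 11.26, 10.90 and 11.05 in WT 1, 2 and 3. All Tg values were below all WT values, but Tg 1 and WT 2 lay 0.02 apart. Dnmt1 averaged 10.70 ± 0.21 in Tg cells and 11.07 ± 0.18 in WT cells (SD, n = 3 each). The log2 fold change of -0.37 ± 0.18 did not pass (SE; adjusted p = 0.30, limma). Its 95% interval in linear terms was 58.3% to 103% of the WT level. Groups that did not overlap with lower Tg values were found for 13.2% of all genes tested, so the separation is common on these arrays. In the deposited intensities, before normalisation, the groups overlapped, with 2031, 2104 and 1240 in Tg cells and 2898, 1856 and 2064 in WT cells. No alternative of the 19 called Dnmt1 (0), and its log2 fold change ran from -0.47 to -0.19. The difference between the changes of Uhrf1 and Dnmt1 was -0.27 on the log2 scale (exact permutation p = 0.4, 0.53 adjusted over 4 pairs).

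Dnmt3b and Dnmt3a place new methyl groups. The brighter of the 2 detected Dnmt3b probes had log2 intensities of 11.00, 11.08 and 10.69 in Tg cells, against 11.01, 11.41 and 11.29 in WT cells. The groups overlapped through WT 1, and the log2 fold change was -0.31 ± 0.18 (SE; adjusted p = 0.38, limma). The other Dnmt3b probe had a log2 difference of -0.13 ± 0.19 (SE). None (0) of the 3 Dnmt3a probes was detected on any array. Their normalised log2 values lay between 4.14 and 4.49, in the range of probes without signal, where the lowest signal of a detected probe was 4.62 to 4.70 per array. DNMT3A is known to act in T cells, so this says only that these probes were not above background, not that the transcript was missing. Dnmt1 and Dnmt3b, the detected methyltransferases, changed by amounts that differed by -0.06 on the log2 scale (exact permutation p = 0.9).

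**Figure D2:**
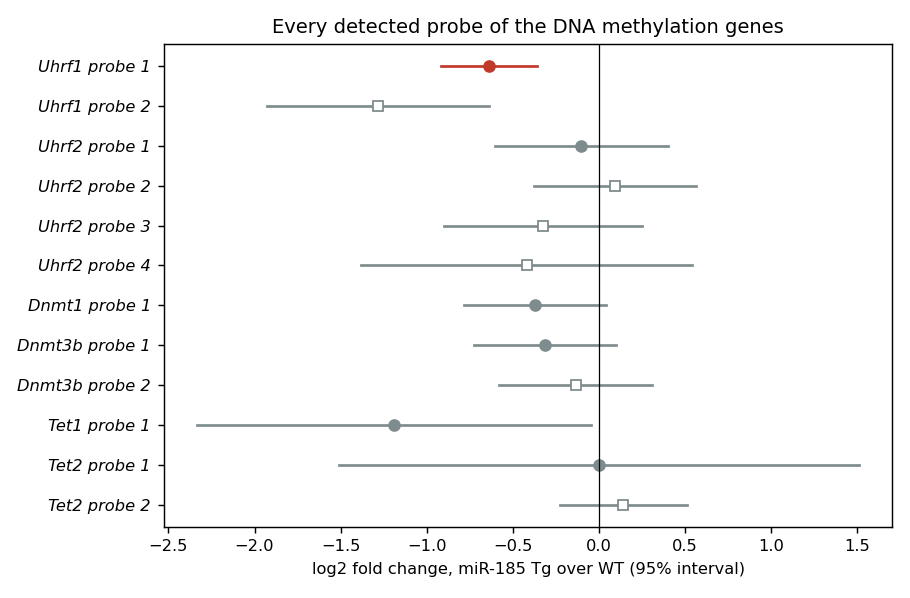
Log2 fold change of miR-185 Tg over WT (horizontal axis) with its 95% interval for each of the 12 detected probes, brightest probe of a gene first (filled circle) and further probes as open squares; red marks an adjusted p under 0.05 in the fit of all probes. Both Uhrf1 intervals lie below 0, and the interval of Tet2 probe 1 is the widest, from -1.51 to 1.51.

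Of the TET enzymes, which oxidise methylcytosine, Tet1 gave the largest difference among the brightest probes of the set and Tet2 the widest spread within Tg cells. Tet1 has 1 probe, with log2 intensities of 6.92, 5.59 and 7.73 in Tg 1, 2 and 3, against 8.22, 7.82 and 7.76 in WT 1, 2 and 3. All Tg values were below all WT values, yet Tg 3 and WT 3 lay 0.03 apart and Tg 2 was more than 1 log2 unit below the other Tg samples. The log2 fold change was -1.19 ± 0.50 (SE) with an unadjusted p of 0.044, and it did not pass (adjusted p = 0.23, limma). An unadjusted p under 0.05 was reached by 20.0% of all genes tested and by 2 of the 6 detected genes of the set, Tet1 and Uhrf1. Without Tg 2 the log2 fold change of Tet1 was -0.61 (adjusted p = 0.19, limma), and without Tg 3 it was -1.70 (adjusted p = 0.062). On the deposited scale the Tet1 intensities were 224, 134 and 260 in Tg cells and 416, 302 and 293 in WT cells, and these groups did not overlap.

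Tet2 had log2 intensities of 7.64, 5.06 and 7.75 in Tg 1, 2 and 3, against 6.89, 6.78 and 6.78 in WT 1, 2 and 3. The WT samples lay within 0.11 of each other, and the Tg samples fell on both sides of them, 2 above and Tg 2 below. The mean difference was 0.0016 on the log2 scale with an SE of 0.66 (adjusted p = 0.999, limma), since these opposite values cancel. Without Tg 2, Tet2 was higher in Tg cells by 0.87 on the log2 scale (adjusted p = 0.020, limma). That setting called 1666 of all 12124 genes tested. Without Tg 1 and without Tg 3 the log2 fold changes were -0.40 and -0.48. Tg 2 therefore decides the direction for Tet2, and no direction is given. A dimmer Tet2 probe, detected on 2 Tg and 1 WT arrays, had log2 intensities of 4.97, 4.82 and 4.61 in Tg cells and 4.62, 4.49 and 4.85 in WT cells, close to background. The change of Tet1 minus that of Tet2 was -1.19 on the log2 scale, with all 3 Tg samples below all 3 WT samples in this within-array difference (exact permutation p = 0.1, the smallest possible, and 0.4 adjusted over 4 pairs).

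Tet3 and the reader Mbd2, which ties methylated DNA to a chromatin-remodelling and deacetylase complex, gave little signal. Of 3 Tet3 probes, 1 was detected on Tg 3 and WT 1 with detection p of 0.046 and 0.038, and the others on 0 arrays. The brightest Tet3 probe had log2 intensities of 4.61, 4.27 and 4.65 in Tg cells and 4.69, 4.57 and 4.43 in WT cells. The single Mbd2 probe had 4.26, 4.19 and 4.15 in Tg cells and 4.29, 4.21 and 4.18 in WT cells, and was detected on 0 arrays. These values lie at the background, and no comparison between the groups can be read from them.

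Among the 6 detected genes, 4 had their lowest normalised value in Tg 2 (Uhrf1, Uhrf2, Tet1 and Tet2) and 2 in Tg 3 (Dnmt1 and Dnmt3b). In the deposited intensities Uhrf1 was lowest in Tg 3, at 6214. Tg 2 held the lowest value for 28.6% of all genes tested. The genes did not vary as one across the 6 samples: Pearson's r was 0.68 between Dnmt1 and Uhrf1 and 0.52 between Dnmt1 and Dnmt3b, over points that share arrays and normalisation. The plot of fold changes under other processing shows which members depend on single samples.

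**Figure D3:**
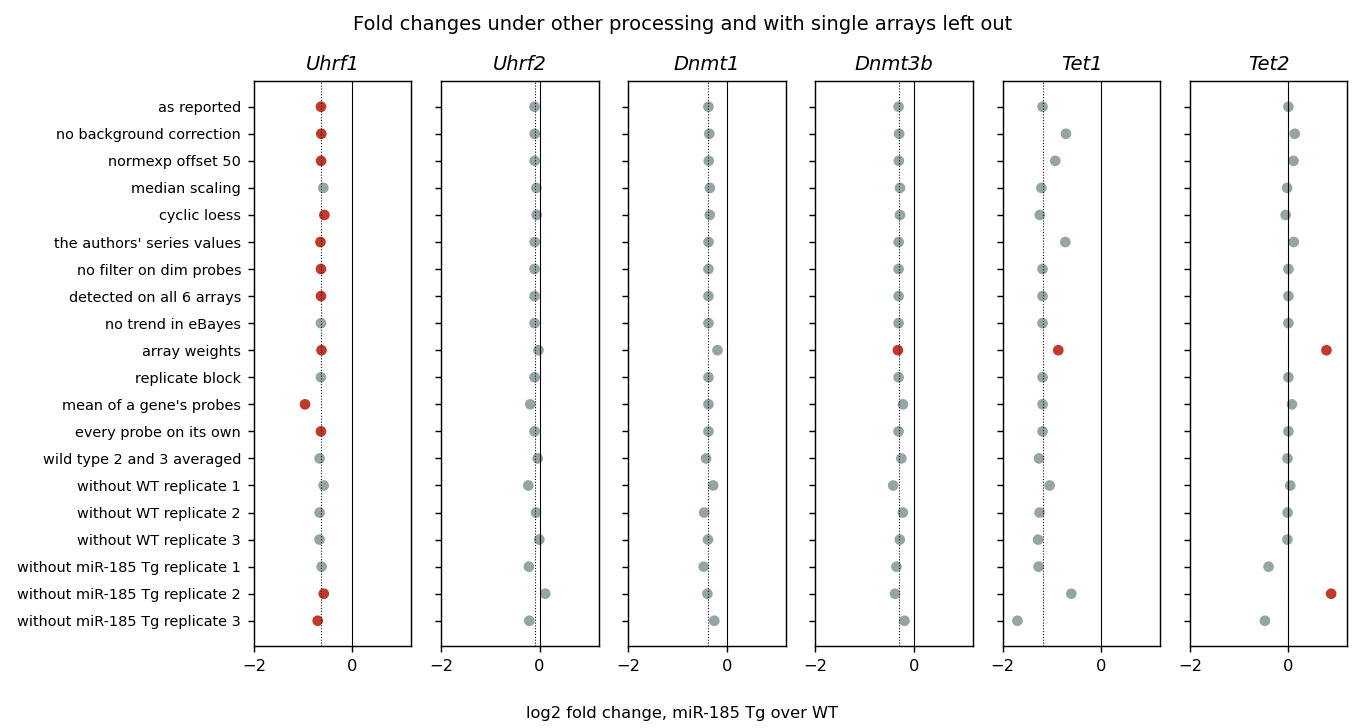
Log2 fold change of miR-185 Tg over WT (horizontal axes) of 6 genes as reported (top row, dotted line) and under 19 alternatives; red marks an adjusted p under 0.05. Uhrf1 stays between -0.96 and -0.57 throughout, while Tet2 runs from -0.48 to 0.87 and lies on both sides of 0.

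By likeness over the 6 arrays, the named genes closest to Uhrf1 were Lrrc59, Nasp and Ppp1r26, each with Pearson's r of 0.998 and Spearman's rho of 0.986. NASP is a histone chaperone, and its gene fell by 1.02 on the log2 scale (adjusted p = 0.028, limma), as did Ppp1r26, by 1.28 (adjusted p = 0.014). Lrrc59 had a log2 fold change of -0.56 (adjusted p = 0.075). Of 9601 named genes compared, 176 had r above 0.95 with Uhrf1 and 27 with Dnmt1. Closest to Dnmt1 were Park7, Sart3 and Psmc1, with r of 0.98 each and adjusted p of 0.44, 0.39 and 0.28. With 6 points, of which WT 2 and WT 3 lie close together, such values are a description.

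Around the enzymes, 62 further genes of the DNA methylation pathway were listed by role, of which 51 were measured. Of these 51, 2 rose, 2 fell and 47 did not pass, where 2.55% of all genes tested rose and 1.68% fell. The list had a median log2 fold change of -0.19, against -0.0014 over all genes. The calls lay outside the core enzymes, in repair and in methyl donor supply. Gadd45g and Gadd45b, stress-induced genes whose proteins have been linked to repair-coupled demethylation, rose. Gadd45g had log2 intensities of 8.47, 8.41 and 8.91 in Tg cells, against 6.20, 6.54 and 6.66 in WT cells, and was 4.37-fold higher (adjusted p = 0.0085, limma). Gadd45b had 5.73, 6.47 and 6.24 in Tg cells, against 4.64, 4.75 and 4.71 in WT cells, and was 2.72-fold higher (adjusted p = 0.016). Neither gene's groups overlapped, and Gadd45b was close to the background in WT cells.

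Ung, the uracil DNA glycosylase that removes uracil from DNA, fell to 9.60, 10.06 and 9.47 in Tg cells, against 10.98, 10.80 and 10.74 in WT cells on the log2 scale. Its log2 fold change was -1.13 ± 0.20 (SE; adjusted p = 0.025, limma). Mthfd1, an enzyme of the folate cycle that feeds methyl groups, fell by 0.85 ± 0.17 on the log2 scale (SE; adjusted p = 0.036), with 9.79, 9.77 and 9.50 in Tg cells against 10.66, 10.46 and 10.49 in WT cells. For both, every Tg sample lay below every WT sample. Of the 4 genes, 0 were called without WT 1, WT 2 or WT 3, where 1, 35 and 2 of all genes were called. Without Tg 1, 1 (Gadd45b) was called among 27 of all genes, and without Tg 3, 3 among 607. Without Tg 2 all 4 were among 12 pathway genes called, where 1666 of all 12124 genes tested were called.

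The brightest genes of each role that did not pass had negative log2 fold changes in 16 of 18 cases. Over the whole measured list it was 36 of 51 genes, and 50.1% of all genes tested were negative. Among partners of copying, Cdca7, which recruits the remodeller HELLS, had a log2 fold change of -0.41 (adjusted p = 0.069), the deacetylase gene Hdac2 -0.46 and the deubiquitinase gene Usp7, whose product stabilises UHRF1 and DNMT1, -0.25. Among partners of new methylation, the corepressor gene Trim28 had -0.21, the demethylase gene Kdm1a -0.20 and Ctcf, which encodes an insulator protein that binds unmethylated sites, -0.54. Of the readers, Mbd1 had 0.07, Mbd3 -0.45 and the Kaiso gene Zbtb33 -0.34, and 6 of the 7 measured readers had their lowest value in Tg 2. In repair, the poly(ADP-ribose) polymerase gene Parp1 had -0.58 (adjusted p = 0.060), Apex1 -0.50 and Xrcc1 -0.19. Among TET partners and cofactor genes, Idh2 had -0.0049, the glycosyltransferase gene Ogt -0.17 and Sin3a -0.10. In methyl donor supply, Mat2a, which makes S-adenosylmethionine, had -0.32, its regulatory partner Mat2b 0.49 and Ahcy, which clears the product that inhibits methyltransferases, -0.67. None (0) of these 18 genes passed over all genes tested (limma), and 5 of them had an unadjusted p under 0.05. So did 13 of the 51 measured pathway genes and 20.0% of all genes tested. Without Tg 2, Cdca7, Mbd3, Parp1, Apex1 and Ahcy were called, in a setting that called 1666 of all 12124 genes tested.

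**Figure D4:**
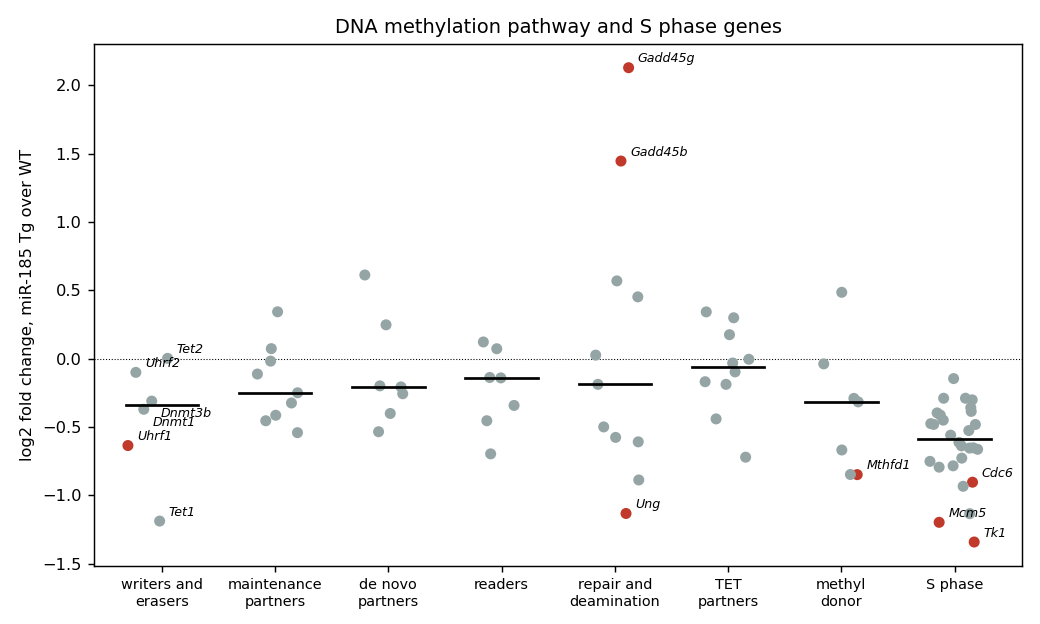
Log2 fold change of miR-185 Tg over WT (vertical axis) for the 6 detected DNA methylation genes and for measured genes of 6 related roles and of S phase; each point is a gene, red marks an adjusted p under 0.05 and black lines are medians. The S phase genes lie below 0 throughout, with a median of -0.59, and Gadd45g and Gadd45b stand highest.

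Because UHRF1 and DNMT1 work at the replication fork, genes of DNA replication were set beside them as measured values. Their list, like that of the pathway, was chosen with earlier results of these data known, so its counts describe it and test nothing. Of 30 listed S phase genes, 28 were measured, and all 28 had negative log2 fold changes, against 50.1% of all genes tested. Their median was -0.59. Of these, 3 fell and 0 rose, where 1.68% of all genes tested fell and 2.55% rose. The 3 were Mcm5, part of the replicative helicase, the thymidine kinase gene Tk1 and the licensing factor gene Cdc6, with log2 fold changes of -1.20, -1.34 and -0.90 (adjusted p = 0.0062, 0.035 and 0.043, limma). All Tg samples lay below all WT samples for 22 of the 28 genes, against 13.2% of all genes in that direction. The fold change of Uhrf1, -0.64, lay near the median of the S phase genes, and that of Dnmt1, -0.37, was smaller. Across the 6 samples Uhrf1 and Mcm5 had r of 0.98. Both were called lower in Tg cells, which by itself raises r over the pooled groups. Of 9601 named genes, 176 had r above 0.95 with Uhrf1, so this value is a description. Without Tg 2 the S phase median was -0.51 with 27 of 28 negative and 9 called, among 1666 of all 12124 genes tested. Without WT 1, WT 2 or WT 3 the count called was 0, 1 and 0, among 1, 35 and 2 of all genes. Whether the lower Uhrf1 follows the level of S phase transcripts was not tested.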

How the data were processed

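RNA from sorted DN3 thymocytes of 3 miR-185 Tg and 3 WT samples was hybridised to 6 arrays of 1 Illumina MouseWG-6 v2.0 chip. Titles give each sample's group and number. Per the file headers, GenomeStudio 1.9.0 wrote the deposited probe table without normalizing. It holds each probe's mean bead intensity as deposited, on a linear scale, with the SD between beads, the bead number (27 to 66 for the probes used here) and a detection score. The detection p-value was taken as 1 minus this deposited score. Whether background was subtracted is not stated in the sources. The authors' series values equal the log2 of a second deposited table of intensity averaged over probes (largest difference 6.3e-07, column medians 6.65 to 6.78), without normalization between arrays, centring or a ratio.

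Background was corrected by normexp with detection p-values (offset 16), followed by quantile normalization, as neqc does in limma 3.58.1 under R 4.3.3. Of 45281 probes 18597 were kept, and the probe with the highest mean stood for each of 12426 genes. The test was limma's lmFit and eBayes (trend), and a call needed an adjusted p under 0.05 by Benjamini-Hochberg. Of 30774 names, 15991 matched a current symbol of RefSeq GRCm38.p6, 5826 a unique synonym, and 8957 were kept. Members and gene lists were chosen with earlier results of these data known. Named genes were all members, all called genes of the lists, the 3 brightest genes not called in each role, and the 3 genes most alike to Dnmt1 and Uhrf1. Alternatives covered background, offset, normalization, source of values, filter, variance model, array weights, replicate block, probe rule and left-out samples. Array number limits the precision.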

Additional observations from a re-analysis of the deposited data

How the results depend on the processing

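As reported, 1 member, 4 other pathway genes and 3 S phase genes were called among 526 of all genes. These 3 counts were the same without background correction and with an offset of 50. Under median scaling the counts were 0, 2 and 1 (310 of all genes), and with WT 2 and WT 3 averaged 0, 0 and 1 (36 of all genes). No trend called 0 members. Array weights called 4 members, 20 pathway genes and 19 S phase genes among 4472. The authors' series values called 1 S phase gene, and both the mean of a gene's probes and every probe on its own called 5. No filter on dim probes called 312 of all genes. With 1 sample left out and the rest normalized again, the counts ran from 0 to 2 members, 0 to 12 pathway genes, 0 to 9 S phase genes and 1 to 1666 of all genes. Uhrf1 was called in 11 of 19 alternatives (adjusted p from 0.00011 to 0.19) and lost in 8. Dnmt3b and Tet1 were called in 1 alternative each, array weights. Tet2 was called in 2, array weights and without Tg 2, both higher in Tg cells. The sign of Tet2 turned under median scaling (-0.026), cyclic loess (-0.056), with WT 2 and WT 3 averaged (-0.017) and with 1 sample left out (from -0.48 to -0.02 where it turned, and up to 0.87). Uhrf2 turned without Tg 2, in a range from -0.23 to 0.12 with 1 sample left out. The cause was not tested. The titles do not say whether samples with the same number were paired. Deviations of such samples from the group means correlated at -0.25, 0.15 and -0.26, which cannot settle pairing with 3 samples per group. With a replicate block 0 members, 2 pathway genes and 2 S phase genes were called among 264 of all genes (Uhrf1 adjusted p = 0.085, limma). The exact permutation test cannot pass with 3 against 3, so it was not set against the threshold. Fold changes of dim probes such as Tet1 (-0.71 without background correction) shrink with the offset.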
